A study of Mus musculus with 6 samples.

Results

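Coagulation, anticoagulant and fibrinolysis genes were examined in the livers of Prdx1 C52S and wild-type mice on a Western diet. The set was a written list of 35 genes, matched by symbol, and all 35 were found, each on 1 of the 29734 rows of the expression table. Of these, 24 encode plasma proteins made mainly by hepatocytes, 9 are made by endothelial, stromal or other non-parenchymal cells, and 2, Ggcx and Vkorc1, encode the enzymes of the vitamin K cycle. All 35 passed the filter on low counts. The series held 6 liver RNA-seq libraries of male mice fed a Western diet, rich in fat and sugar, for 20 weeks from an age of 8 weeks. The Prdx1 C52S group, libraries 1, 2 and 4, carried an allele of peroxiredoxin 1, a peroxidase that reduces hydrogen peroxide, in which the peroxidatic cysteine is replaced by serine. The WT group, libraries 6, 8 and 9, had the wild-type gene and the same diet. Values of a group are given below in this order of libraries. No group on a control diet was analysed here, so that no value below shows an effect of the diet. The labels say nothing of zygosity, background strain or pooling of animals, and p-values therefore measure the spread between these libraries, which may be partly technical. The amino acid substitution leaves the transcript in place, so that the Prdx1 level does not check the genotype labels.

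Blood clots when thrombin cuts fibrinogen to fibrin. Thrombin is formed by a cascade of protease zymogens that starts at tissue factor or at the contact system, and several of these zymogens need vitamin K-dependent carboxylation to bind membranes. Antithrombin, heparin cofactor II, the protein C system and the protein Z system restrain the cascade, and plasmin, formed from plasminogen by tissue or urokinase activators, dissolves fibrin. Hepatocytes secrete most of these plasma proteins, whereas endothelial cells make factor VIII, von Willebrand factor, thrombomodulin and tissue plasminogen activator. Fibrinogen is also an acute phase protein, induced through interleukin 6.

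Library totals ran from 60326469 to 76164949 estimated counts. Low values were most frequent at 4 (6204 values) and next at 1 (5315), so that up to about 4 of these counts may stand for 1 sequenced fragment. The lowest estimated count of any member in any library was 108, for Plat in Prdx1 C52S 2, and no hepatocyte-made member was below 2297. Levels below are FPKM, in which fragments are scaled by transcript length and by the size of the library. Differences are log2 fold changes of Prdx1 C52S minus WT from edgeR's quasi-likelihood test, scaled by TMM (trimmed mean of M-values) and given with their SE. TMM set the median log2 fold change of all 18931 genes tested at -0.03, and plain library totals set it at -0.34. A gene with equal FPKM in both groups therefore has a log2 fold change near 0.3 under TMM. WT 8 stood apart: the bile duct keratin Krt19 was at 30.9 FPKM there and at 0.507 to 3.97 in the other 5 libraries, and the sinusoidal endothelial lectin Clec4g was at 2.54 against 14.6 to 19.9. Albumin, the main secreted product of hepatocytes, was at 18120 to 22280 FPKM. In bulk tissue, fewer cells of a type and less RNA per cell cannot be told apart.

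No member passed an adjusted p of 0.05 with all 6 libraries in edgeR's quasi-likelihood test (0 of 35), and neither did any other gene (0% of 18931). The smallest adjusted p-values among the members were 0.0803 for both Klkb1 and Serpina10. At an unadjusted p under 0.05, 10 members had higher values in Prdx1 C52S, against a background of 11.5% of all genes tested, and 4 had lower values, against 14.8%. The 10 were F7, F10, F11, Klkb1, F13b, Serpinc1, Serpind1, Proc, Proz and Hrg, all made by hepatocytes. The 4 were Serpina10, Pros1, F3 and Plat. DESeq2 on the same libraries called 5 members higher (Klkb1, F13b, Serpinc1, Serpind1 and Proc), beside 8.02% of all genes with an adjusted p, and 4 lower (Serpina10, Pros1, F3 and Plat), beside 9.88%. Without WT 8, edgeR's quasi-likelihood test called Klkb1, Serpinc1 and Serpind1 higher (background 2.7%) and Serpina10 lower (background 1.94%), 4 members in all beside 4.64% of genes. Limma's voom with library quality weights called 5 members beside 10.2% of genes, of which Klkb1, Serpinc1 and Serpind1 were higher (background 5.15%) and Serpina10 and Pros1 lower (background 5.08%). Serpina10 was the only member called with library totals, beside 0.845% of genes (0.66% lower), and with limma on log2(FPKM + 0.1), beside 1.43% (1.1% lower). No member was called without a low-count filter, where 0.659% of genes were, without WT 9, where 0.672% were, or with quantile normalization, where 0.074% were, 0.037% in each direction.

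Hepatocyte-made and endothelial or stromal members had medians of opposite sign with TMM. Of the 24 hepatocyte-made genes, 19 had a positive log2 fold change, with a median of 0.35, beside 47% of all genes tested and the median of -0.03. The 5 exceptions were the 3 fibrinogen chains, Serpina10 and Pros1. Of the 9 endothelial or stromal genes, 7 had a negative log2 fold change, with a median of -0.35, and F8 and F2r were the exceptions. With library totals in place of TMM, 16 of the 24 and 1 of the 9 were positive, with medians of 0.06 and -0.62 beside -0.34 for all genes. The distance of the hepatocyte-made median from that of all genes was thus 0.38 with TMM and 0.40 with library totals. Quantile normalization, which forces all libraries to one distribution, gave a hepatocyte-made median of -0.03, at a distance of -0.07 from that of all genes, and an endothelial or stromal median of -0.14. Both medians were then negative, and the difference between them was 0.10, beside 0.69 with TMM and 0.68 with library totals. Of 9 hepatocyte markers tested in the same libraries, 7 were positive, with a median of 0.28 (0.15 without WT 8). With library totals 4 of the 9 were positive, with a median of -0.03. Of 14 endothelial markers, 8 were positive with TMM, with a median of 0.01, unlike the endothelial or stromal members. Of 10 stellate cell and fibroblast markers, 6 were negative with TMM, with a median of -0.30.

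**Figure D1:**
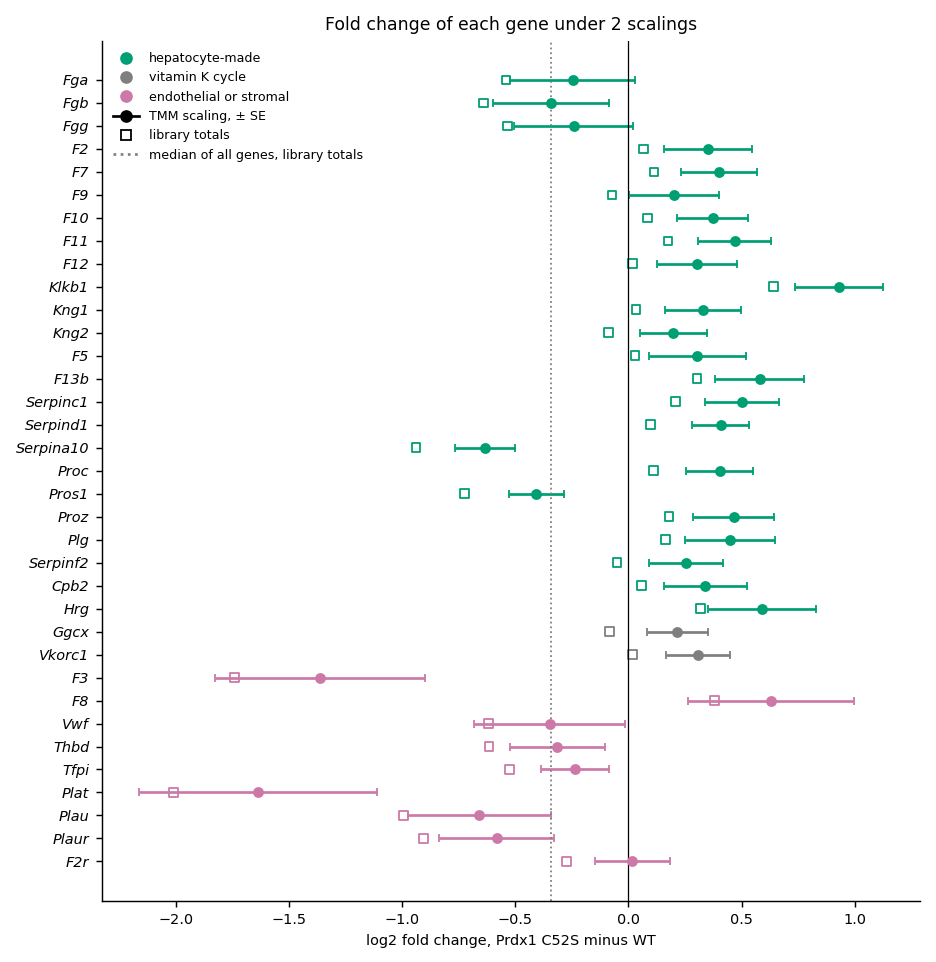
Log2 fold change of each of the 35 genes, Prdx1 C52S minus WT (x axis), by gene (y axis). Filled circles with bars are TMM-scaled estimates ± SE from edgeR, open squares are estimates with library totals, colours mark where the protein is made, and the dotted line is the median of all genes with library totals (-0.34). Most hepatocyte-made genes lie to the right of 0 under TMM, while Serpina10 (-0.63), Pros1 (-0.41), F3 (-1.36) and Plat (-1.64) lie to the left.

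The contrast was also computed inside each library, as a difference from which any scaling by a factor for each library cancels. The deviation of each gene from its own mean over the 6 libraries was taken on the log2 FPKM scale, and the median over the 9 endothelial or stromal genes was subtracted from that over the 24 hepatocyte-made genes. The C52S libraries had differences of 0.09, 0.89 and 0.30, and the WT libraries of -0.27, -0.63 and -0.13. The groups did not overlap, and the spread within each group was wide.

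**Figure D2:**
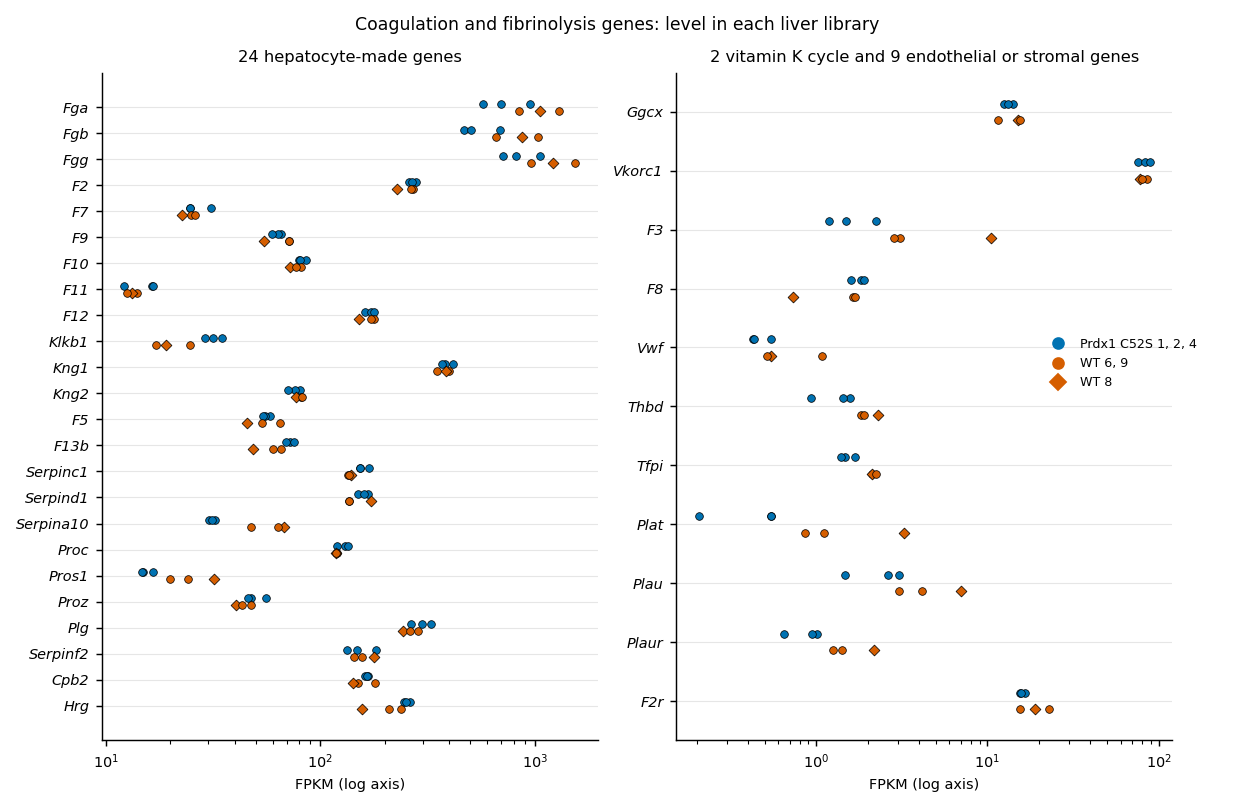
FPKM (x axis, log scale) of the 24 hepatocyte-made genes (left) and the other 11 genes (right) in each of the 6 libraries, with Prdx1 C52S in blue, WT in orange and WT 8 as diamonds. Fibrinogen chains are the most abundant members, Serpina10 and Klkb1 are separated by genotype in opposite directions, and WT 8 is the highest library for F3 and Plat and the lowest for F8.

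The fibrinogen genes were the most abundant members in every library and varied together. Fga, the alpha chain, was at 572, 952 and 698 FPKM in the C52S libraries and 848, 1065 and 1300 in the WT ones. Prdx1 C52S 2 lay within the WT range, and the other 2 Prdx1 C52S libraries lay below it. Fgb, the beta chain, was at 469.8, 689 and 507 FPKM in the C52S libraries and 661, 877 and 1041 in the WT ones. Fgg, the gamma chain, was at 716, 1056 and 822 FPKM in the C52S libraries and 964, 1221 and 1549 in the WT ones. All 3 chains had the same overlap, with Prdx1 C52S 2 above WT 6. The TMM log2 fold changes were -0.25 (SE 0.28), -0.34 (SE 0.26) and -0.24 (SE 0.26), with edgeR adjusted p-values of 0.604, 0.429 and 0.595. Without WT 9, the library with the highest levels, they were -0.01, -0.11 and 0.02. Without Prdx1 C52S 2, the library that overlapped WT, they were -0.48, -0.54 and -0.42, and without Prdx1 C52S 1, the lowest, -0.08, -0.22 and -0.11. With library totals they were -0.54, -0.64 and -0.53.

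The 3 chains kept a nearly fixed proportion to each other. Fgb stood at 0.757 ± 0.0556 of the Fga level in Prdx1 C52S and at 0.802 ± 0.0217 in WT (SD, n = 3), and Fgg at 1.18 ± 0.0704 and 1.16 ± 0.0294. Prothrombin, by contrast, was steady, so that the ratio of Fga to F2 took values of 2.21, 3.41 and 2.60 for C52S and of 3.12, 4.65 and 4.92 for WT, overlapping at Prdx1 C52S 2. The fibrinogen chains made up 40.8%, 48.9% and 43.6% of the summed FPKM of the 24 hepatocyte-made genes for C52S, and 48.7%, 56.8% and 60.8% for WT. Other acute phase genes had mostly negative log2 fold changes, 13 of 14, with a median of -0.37. All genes tested had a median of -0.03, with 47% positive. With all libraries 0 of 14 passed in edgeR. An unadjusted edgeR p under 0.05 was found for 5, all lower, beside 14.8% of all genes. Lipocalin 2, Lcn2, an iron-siderophore binder of the acute phase, was at 21.5, 11.4 and 18.9 FPKM in the C52S libraries and 42.98, 60.8 and 92.6 in the WT ones. Socs3, the feedback inhibitor of interleukin 6 signalling, was at 1.69, 1.29 and 1.67 FPKM in the C52S libraries and 5.15, 9.08 and 2.997 in the WT ones. Both were lower in every Prdx1 C52S library than in any WT library, as were 36.7% of all genes tested. Prdx1 C52S 2, the highest of its group in fibrinogen, was the lowest of its group in both Lcn2 and Socs3.

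**Figure D3:**
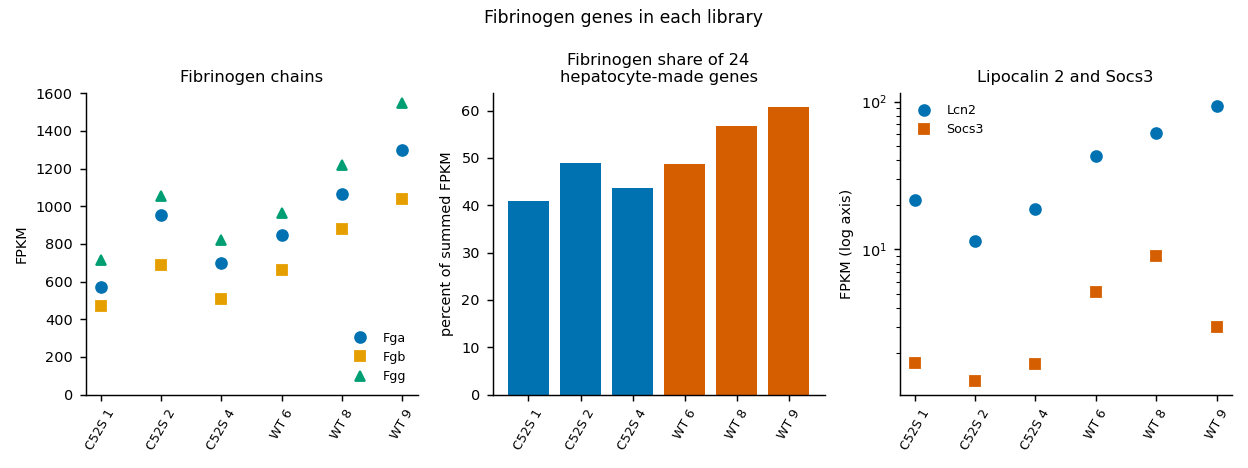
Left, FPKM of Fga, Fgb and Fgg in each library (axis from 0). Middle, summed fibrinogen FPKM as a percent of the 24 hepatocyte-made genes. Right, FPKM of Lcn2 and Socs3 on a log axis. The chains keep the order Fgg, Fga, Fgb in every library, and their share is 40.8% to 48.9% in Prdx1 C52S and 48.7% to 60.8% in WT.

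The fibrinogen genes are neighbours on chromosome 3 (GRCm38), with Fgg at chr3:83007724-83015049, Fga at chr3:83026076-83033627 and Fgb at chr3:83040141-83049863. The gaps between them are 11026 and 6513 bases. Their proximal promoters are shown because the 3 chains varied together. Each is written 5′ to 3′ on the gene's own strand from RefSeq (GRCm38.p6), and capitals mark matches, on either strand, to a C/EBP site (TTGCNNAA) or the core of interleukin 6 response elements (CTGGGAA). Fga covers chr3:83025926-83026075 (plus strand), from 227 to 78 bases before the RefSeq start. Fgb covers chr3:83049864-83050013 (minus strand) and Fgg chr3:83007574-83007723 (plus strand), both the 150 bases before the start.

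Fga: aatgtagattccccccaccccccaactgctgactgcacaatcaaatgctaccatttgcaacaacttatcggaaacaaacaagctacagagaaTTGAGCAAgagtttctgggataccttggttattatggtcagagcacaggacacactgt

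Fgb: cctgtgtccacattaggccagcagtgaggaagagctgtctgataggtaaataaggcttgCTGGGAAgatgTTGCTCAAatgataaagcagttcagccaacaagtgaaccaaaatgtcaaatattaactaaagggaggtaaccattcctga

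Fgg: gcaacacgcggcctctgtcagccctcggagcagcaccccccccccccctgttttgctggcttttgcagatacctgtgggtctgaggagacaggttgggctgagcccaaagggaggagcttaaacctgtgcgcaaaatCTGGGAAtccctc

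In these stretches, Fga held the C/EBP match 135 to 128 bases before its start. Fgb held the interleukin 6 core at 91 to 85 and the C/EBP match at 80 to 73 bases before the start. Fgg held the interleukin 6 core at 13 to 7 bases before the start. In the 250 bases before the start, 9.56% of all 32851 RefSeq promoters held TTGCNNAA and 9.1% CTGGGAA. RefSeq promoters matched 27 of the 35 members, of which 9 and 4 held these words. A match of letters is a description and not a mapped binding site. No matches in the printed stretches overlap one another.

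None of the 4 vitamin K-dependent procoagulant zymogens separated the groups on the FPKM scale. With TMM-scaled values F2, F7 and F10 were separated, higher in Prdx1 C52S, beside 16.9% of all genes tested. Prothrombin, F2, was the most abundant at 259, 279 and 268 FPKM in the C52S libraries and 272, 229 and 264 in the WT ones. Its FPKM groups overlapped, and WT 8 was the lowest library. Factor VII, F7, which binds tissue factor, was at 26.8 ± 3.64 against 24.6 ± 1.76 FPKM (SD, n = 3). Factor IX, F9, whose loss causes haemophilia B, was at 62.9 ± 3.06 against 65.7 ± 9.73. Factor X, F10, the zymogen at which both branches meet, was at 82.0 ± 3.66 against 76.8 ± 4.47. The 4 TMM log2 fold changes lay between 0.20 (F9) and 0.40 (F7), with edgeR adjusted p-values from 0.185 to 0.553. With library totals they lay between -0.07 and 0.11. Without WT 8 they were 0.20 for F2, 0.26 for F7, 0.0089 for F9 and 0.24 for F10. F9 was at 0.31 without WT 6 and 0.32 without WT 9. F7, F10 and Proz, which encodes protein Z, stand in a row on chromosome 8 with 1498 and 4237 bases between them, and their log2 fold changes were 0.40, 0.37 and 0.47. The carboxylase gene Ggcx averaged 13.3 ± 0.786 FPKM in C52S and 14.0 ± 2.16 in WT, a log2 fold change of 0.22 (SE 0.13), which was 0.13 without WT 6 and 0.36 without WT 9, and the epoxide reductase gene Vkorc1, the target of warfarin, averaged 82.4 ± 6.80 against 80.9 ± 4.17 (0.31, SE 0.14, and 0.19 without WT 8). Neither vitamin K cycle gene had groups that were separated.

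Within the contact system, prekallikrein stood out. Klkb1, which encodes this activator of factor XII and releaser of bradykinin, was at 28.9, 34.96 and 31.7 FPKM in the C52S libraries and 24.6, 19.1 and 17.1 in the WT ones. All 3 Prdx1 C52S libraries were above all 3 WT libraries, a separation in this direction that 6.09% of all genes tested showed on the FPKM scale, and 5 members (Klkb1, F13b, Serpinc1, Proc and Hrg). This was a 1.91-fold difference, or 0.93 on the log2 scale (SE 0.19), with an edgeR adjusted p = 0.0803. It was 0.64 with library totals and ran from 0.80 to 1.15 when each library was left out in turn. Without WT 8 it was 0.80 (edgeR adjusted p = 0.0483). Over all alternatives the adjusted p ran from 0.000356 (DESeq2) to 0.29 (edgeR without Prdx1 C52S 2).

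The partners of prekallikrein differed less. Factor XI, F11, was at 12.2, 16.4 and 16.6 FPKM in the C52S libraries and 14, 13.2 and 12.5 in the WT ones (log2 fold change 0.47, SE 0.16), with overlapping groups since Prdx1 C52S 1 was the lowest library of all. Factor XII, F12, was at 171 ± 8.39 against 168 ± 13.8 (0.30, SE 0.18, and 0.15 without WT 8). Kininogen 1, Kng1, the source of bradykinin, was at 390 ± 25.2 against 378 ± 25.9 (0.33, SE 0.17), and its paralog Kng2 at 75.9 ± 4.86 against 80.2 ± 2.97 (0.20, SE 0.15, and 0.08 without WT 8). With TMM-scaled values the groups of F12 and Kng1 were separated, higher in Prdx1 C52S, beside 16.9% of all genes tested. Those of F11 and Kng2 overlapped. The kininogen pair shares 860 stretches of 31 bases, which is 26.5% of those in Kng1 transcripts and 30.6% of those in Kng2, so that reads may have been split between them. No other pair of members shared such a stretch.

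Within libraries, Klkb1 stood to F12 as 0.179, 0.202 and 0.179 for C52S and as 0.139, 0.126 and 0.0987 for WT. The ratio of Klkb1 to F11 was 2.37, 2.14 and 1.91 against 1.76, 1.45 and 1.37. Both ratios were separated by group, and neither depends on the scaling between libraries. The ratios described here and below were chosen after the values were seen. For 10 ratios compared with a two-sided exact permutation test, the smallest p that 3 against 3 libraries allow is 0.1, and 5 ratios reached it (adjusted p = 0.2, 3 libraries a group). Among these, the ratios of Klkb1 to F11, F12 and Kng1 share their numerator, so that the 5 are not separate results.

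F11 and Klkb1 are paralogs that lie 4657 bases apart on the minus strand of chromosome 8, with F11 at chr8:45241174-45262031 and Klkb1 at chr8:45266689-45294859. The gene model Gm45753 overlaps Klkb1 on the same strand, and how reads were divided between them was not tested. The RefSeq start of Klkb1 lies 24 bases inside the GENCODE gene. Their promoters are shown as those of 2 neighbours with the same direction and unequal size of difference. Both stretches are the 150 bases before the RefSeq start on the minus strand, chr8:45262032-45262181 for F11 and chr8:45294836-45294985 for Klkb1, and capitals mark a forkhead word (TGTTTAC, here in reverse) and the C/EBP word (TTGCNNAA).

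F11: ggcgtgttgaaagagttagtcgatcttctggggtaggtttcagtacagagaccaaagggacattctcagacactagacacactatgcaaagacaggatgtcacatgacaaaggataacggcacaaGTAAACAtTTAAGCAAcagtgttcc

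Klkb1: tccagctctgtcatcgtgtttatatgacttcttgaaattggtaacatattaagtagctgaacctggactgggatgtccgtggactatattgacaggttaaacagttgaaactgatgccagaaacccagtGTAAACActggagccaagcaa

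The forkhead word stood at 25 to 19 bases before the RefSeq start in F11 and at 21 to 15 in Klkb1. In Klkb1 this position lies inside the GENCODE gene, which begins 24 bases before the RefSeq start. Within 250 bases, 3.17% of all RefSeq promoters held the word. Of the members it was otherwise found in Vkorc1 alone, among the 27 searched. The C/EBP word lay beside it in F11, in reverse, at 17 to 10 bases before the start, and lay at 177 to 170 in Klkb1, outside the stretch printed. In a list of 9 hepatocyte transcription factors, 6 had negative log2 fold changes, with a median of -0.17. The forkhead gene Foxa3, with the smallest p of the list, was at 9.70, 10.6 and 9.84 FPKM in the C52S libraries and 14.9, 26.5 and 17.7 in the WT ones (log2 fold change -0.65, SE 0.14, edgeR adjusted p = 0.0819). The other forkhead genes of the list had overlapping groups. No link of these factors to F11 or Klkb1 was tested.

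The cofactor and the carrier subunit of the last crosslinking step had values that depended on WT 8. Factor V, F5, was at 58.3, 55.1 and 54.1 FPKM in the C52S libraries and 64.6, 45.3 and 53.3 in the WT ones, with the WT libraries on both sides of the Prdx1 C52S ones. The B subunit of factor XIII, F13b, was at 72.3, 75.2 and 69.1 FPKM in the C52S libraries and 65.9, 48.6 and 60.03 in the WT ones. Its groups did not overlap, with a log2 fold change of 0.58 (SE 0.20, edgeR adjusted p = 0.13). Without WT 8, the lowest library for both genes, F13b differed by 0.39 (edgeR adjusted p = 0.0538, range over alternatives 0.0355 to 0.332), and the F5 difference was 0.11, beside 0.31 with all libraries and 0.50 without WT 6.

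The plasma anticoagulants split into 4 genes with positive and 2 with negative log2 fold changes. Serpina10 encodes the protein Z-dependent protease inhibitor, which blocks factor Xa on membranes and also factor XIa. It was at 32.3, 30.3 and 31.1 FPKM in the C52S libraries and 47.7, 67.7 and 63.2 in the WT ones. The Prdx1 C52S values lay close together and below all WT values. On the log2 scale Serpina10 differed by -0.63 (SE 0.13; edgeR adjusted p = 0.0803), and by -0.94 with library totals and -0.73 to -0.52 with each library left out in turn. Serpina10 passed with library totals (edgeR adjusted p = 0.0427) and without WT 8 (edgeR adjusted p = 0.0346), and over all alternatives the adjusted p ran from 0.000491 (DESeq2) to 0.29 (edgeR without Prdx1 C52S 2). On the FPKM scale 36.7% of all genes tested were separated in this direction, and 8 members (Serpina10, Pros1, F3, Thbd, Tfpi, Plat, Plau and Plaur). With TMM-scaled values these were 18% of genes and 6 members, without Tfpi and Plau, and 16.9% of genes and 15 members were separated with higher values in Prdx1 C52S.

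Its cofactor protein Z, Proz, did not share the direction. Proz was at 47.3, 55.9 and 45.9 FPKM in the C52S libraries and 47.5, 40.3 and 42.98 in the WT ones, with groups that overlapped. With TMM-scaled values its groups were separated, higher in Prdx1 C52S, beside 16.9% of all genes tested. The log2 fold change was 0.47 (SE 0.18), 0.18 with library totals and 0.13 with quantile normalization. The ratio of Serpina10 to Proz therefore took values of 0.682, 0.542 and 0.679 for C52S and of 1.003, 1.68 and 1.47 for WT. The inhibitor transcript was below its cofactor in every Prdx1 C52S library and level with or above it in every WT library.

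The protein C pathway showed the same kind of split. Proc, the zymogen of the protease that inactivates factors Va and VIIIa, was at 120.2, 131 and 135 FPKM in the C52S libraries and 119.5, 118 and 118 in the WT ones. The groups were separated by a narrow gap (log2 fold change 0.40, SE 0.15, edgeR adjusted p = 0.146). The Proc difference was 0.11 with library totals and 0.01 with quantile normalization. Protein S, Pros1, the cofactor of activated protein C, which is also made by endothelial cells and macrophages, was at 16.6, 14.8 and 14.7 FPKM in the C52S libraries and 24.1, 31.9 and 19.9 in the WT ones. All Prdx1 C52S libraries were below all WT libraries (log2 fold change -0.41, SE 0.12, edgeR adjusted p = 0.11, and -0.72 with library totals). The ratio of Pros1 to Proc was 0.139, 0.113 and 0.109 against 0.201, 0.270 and 0.169. The summed level of 8 macrophage markers was also lower in Prdx1 C52S, at 237 to 271 FPKM against 520 to 582 in WT. The sum was highest in WT 6, and Pros1 in WT 8. Clec4f, part of the sum, was at 44.8 FPKM in WT 6 and 2.56 in WT 8. Adgre1, Cd68 and Csf1r were highest in WT 6, and Ptprc and Ctss in WT 8. Of the 8 markers, 7 had negative log2 fold changes, and Clec4f had a positive one (0.47, SE 0.91). The part of these cells in the Pros1 difference was not tested.

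Antithrombin and heparin cofactor II, the heparin-dependent thrombin inhibitors among the members, had positive log2 fold changes. Antithrombin, Serpinc1, was at 153, 169 and 153 FPKM in the C52S libraries and 135, 139 and 136 in the WT ones, with separated groups (0.50, SE 0.16, edgeR adjusted p = 0.122; 0.21 with library totals). Heparin cofactor II, Serpind1, was at 151, 168 and 159.8 FPKM in the C52S libraries and 136, 172 and 136 in the WT ones, where WT 8 was the highest library of all (0.41, SE 0.13, edgeR adjusted p = 0.115; 0.10 with library totals). Without WT 8 the edgeR adjusted p-values were 0.0476 and 0.0486. Over all alternatives they ran from 0.00254 to 0.936 for Serpinc1 and from 0.000939 to 0.921 for Serpind1, lowest in DESeq2 and highest with quantile normalization. The ratio of Serpinc1 to F2, inhibitor to protease precursor, was 0.591, 0.606 and 0.572 against 0.496, 0.606 and 0.515 and overlapped at WT 8.

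**Figure D4:**
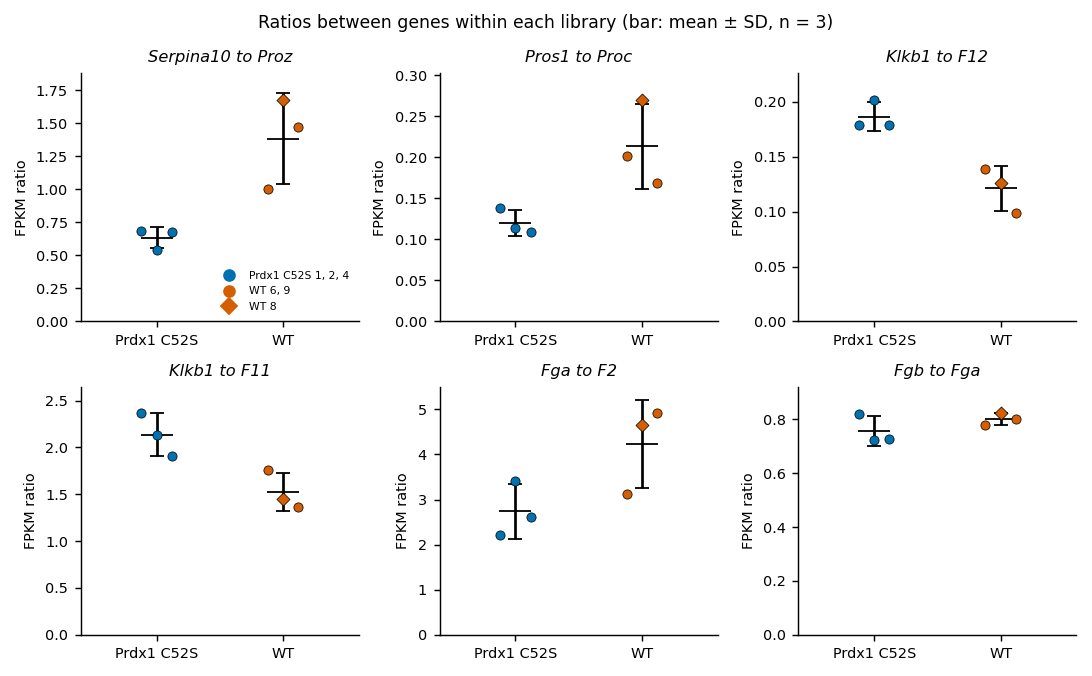
FPKM ratio (y axis, from 0) of the gene pairs named above each panel, by group, with a point per library and the mean ± SD of n = 3 libraries. The ratios of Serpina10 to Proz, Pros1 to Proc, Klkb1 to F12 and Klkb1 to F11 are separated by group, while Fga to F2 overlaps and Fgb to Fga stays between 0.724 and 0.824.

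Of 4 plasma proteins of fibrinolysis, 3 had overlapping groups on the FPKM scale. Plasminogen, Plg, was at 265, 328 and 297 FPKM in the C52S libraries and 285, 242 and 263 in the WT ones (log2 fold change 0.45, SE 0.20). Its FPKM groups overlapped, as did those of Serpinf2 and Cpb2. With TMM-scaled values Plg and Cpb2 were separated, higher in Prdx1 C52S, beside 16.9% of all genes tested. Antiplasmin, Serpinf2, was at 155 ± 25.2 against 159 ± 17.5 (0.26, SE 0.16, and 0.11 without Prdx1 C52S 2), and Cpb2, the carboxypeptidase that removes plasminogen binding sites from fibrin, at 165 ± 2.69 against 157 ± 20.3 (0.34, SE 0.18, with 0.19 without WT 8 and 0.51 without WT 9). Histidine-rich glycoprotein, Hrg, which binds plasminogen and heparin, was at 245, 262 and 252 FPKM in the C52S libraries and 238, 157 and 209.9 in the WT ones. Its groups were separated, with WT 8 the lowest (0.59, SE 0.24, edgeR adjusted p = 0.174; 0.37 without WT 8).

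Both plasminogen activators and the urokinase receptor had lower FPKM in every Prdx1 C52S library than in any WT library. On this scale 36.7% of all genes tested were separated in the same direction. Plat, the tissue-type activator, was at 0.544, 0.206 and 0.547 FPKM in the C52S libraries and 1.11, 3.25 and 0.855 in the WT ones, the widest difference among the members. Its groups were separated, and WT 8 was far above the next library. Plat differed by -1.64 on the log2 scale (SE 0.53, edgeR adjusted p = 0.123) and by -0.996 without WT 8 (edgeR adjusted p = 0.207, range over alternatives 0.012 to 0.306). Plau, the urokinase, was at 2.64, 1.48 and 3.02 FPKM in the C52S libraries and 4.16, 6.97 and 3.04 in the WT ones (-0.66, SE 0.32; -0.41 without either WT 8 or Prdx1 C52S 2), and its groups nearly touched. Plaur, the urokinase receptor of myeloid and epithelial cells, was at 1.01, 0.646 and 0.943 FPKM in the C52S libraries and 1.42, 2.18 and 1.25 in the WT ones (-0.58, SE 0.25). The edgeR adjusted p-values were 0.231 for Plau and 0.197 for Plaur. With TMM-scaled values the groups of Plat and Plaur were separated, lower in Prdx1 C52S, beside 18% of all genes tested. Those of Plau overlapped. For all 3 genes Prdx1 C52S 2 was the lowest library and WT 8 the highest.

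Tissue factor, F3, the initiator of the cascade, was at 2.23, 1.19 and 1.49 FPKM in the C52S libraries and 3.10, 10.5 and 2.83 in the WT ones. The groups were separated, and WT 8 was far above all others. F3 differed by -1.36 on the log2 scale (SE 0.46, edgeR adjusted p = 0.131) and by -0.66 without WT 8 (edgeR adjusted p = 0.177, range over alternatives 0.0216 to 0.337). The bile duct markers moved in the same libraries as F3 and Plat. The sum of 8 cholangiocyte genes ran from 63.1 to 132 FPKM over the C52S libraries. Over the WT libraries it ran from 229.6 to 835, highest in WT 8. Spp1 alone held most of this sum in every library, at 60.1 to 125.5 FPKM in C52S and 220 to 736 in WT. Krt19 was at 0.507 to 1.59 FPKM in C52S and 2.09 to 30.9 in WT. All 8 genes had negative log2 fold changes. The part of these cells in the F3 and plasminogen activator values was not tested.

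Endothelial members gave mixed results. Factor VIII, F8, made by sinusoidal endothelium, was at 1.82, 1.91 and 1.59 FPKM in the C52S libraries and 1.64, 0.735 and 1.69 in the WT ones, so that WT 8 alone was low (log2 fold change 0.63, SE 0.37; 0.28 without WT 8). The F8 groups overlapped in FPKM and were separated with TMM-scaled values, higher in Prdx1 C52S, beside 16.9% of all genes tested. Clec4g was low in that library too. Von Willebrand factor, Vwf, the carrier of factor VIII, was at 0.542, 0.428 and 0.433 FPKM in the C52S libraries and 1.08, 0.546 and 0.518 in the WT ones (-0.35, SE 0.33), where WT 6 was the high library, and the difference was 0.15 without WT 6 and -0.58 without WT 8. The clotting cofactor and its carrier thus deviated in different WT libraries. Thrombomodulin, Thbd, which turns thrombin towards protein C, was at 1.56, 0.936 and 1.44 FPKM in the C52S libraries and 1.83, 2.29 and 1.89 in the WT ones (-0.31, SE 0.21, and -0.13 without Prdx1 C52S 2). Tissue factor pathway inhibitor, Tfpi, was at 1.67, 1.47 and 1.39 FPKM in the C52S libraries and 2.13, 2.11 and 2.25 in the WT ones (-0.24, SE 0.15, and -0.15 without WT 9). Both were separated on the FPKM scale, yet the Tfpi groups overlapped after TMM scaling, and neither difference passed the test (edgeR adjusted p = 0.375 and 0.352). The thrombin receptor F2r was at 16.6, 15.4 and 15.6 FPKM in the C52S libraries and 22.9, 19.03 and 15.4 in the WT ones (0.02, SE 0.16, and from -0.08 without WT 8 to 0.23 without WT 6). It was by far the most abundant of the 9 genes.

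Of 14 general endothelial markers, 8 were positive and 6 negative with TMM, with a median log2 fold change of 0.01. With library totals 3 were positive, with a median of -0.29. On the FPKM scale 5 were separated with lower values in Prdx1 C52S, beside 36.7% of all genes tested. None was separated with higher values, beside 6.09% of all genes. Their summed level was 85.5 to 93.2 FPKM in Prdx1 C52S and 95.99 to 110.1 in WT. Platelet markers, relevant to Vwf and F5, were low, with a sum of 2.26 to 2.76 FPKM against 3.83 to 4.995 over 8 genes. Pf4 alone held most of this sum in every library, at 1.36 to 1.82 FPKM in C52S and 2.65 to 4.21 in WT. Of the 5 platelet markers tested, 2 had positive and 3 negative log2 fold changes, with a median of -0.06. The platelet collagen receptor gene Gp6 was at 0 in 5 of 6 libraries. Stellate cell and fibroblast markers summed to 134 to 156 against 155 to 231, with 6 of 10 negative.

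**Figure D5:**
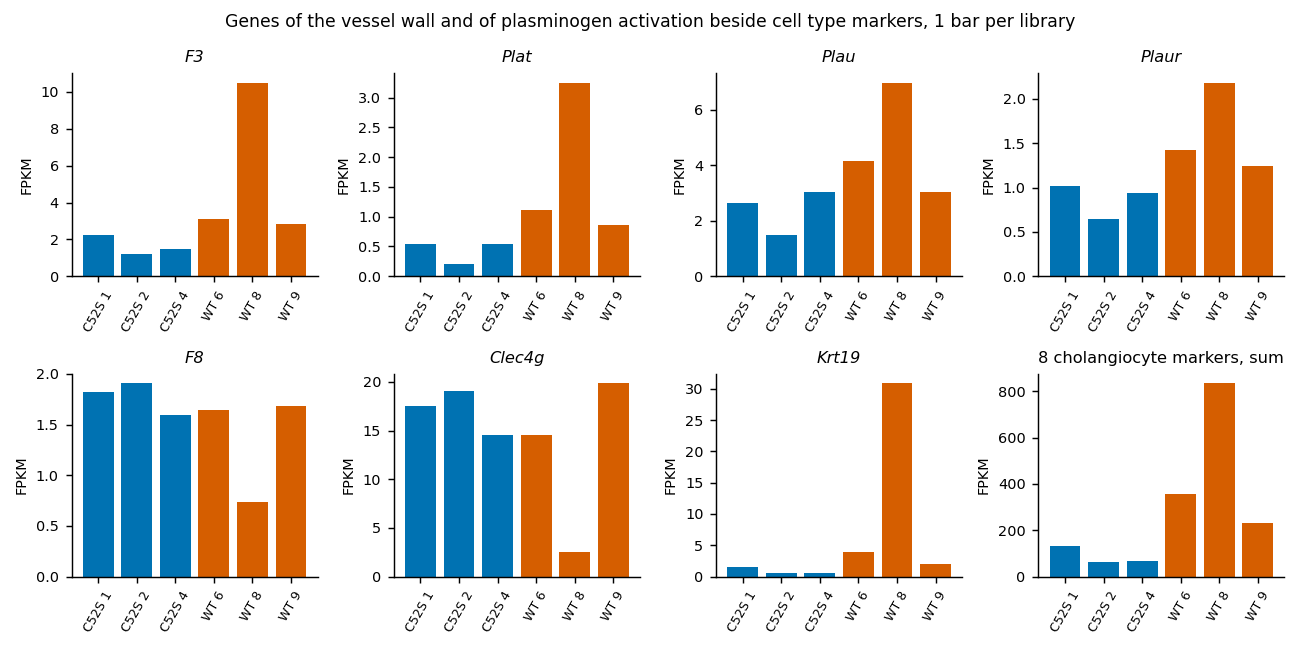
FPKM (y axis, from 0) in each of the 6 libraries for F3, Plat, Plau, Plaur and F8, with 1 bar per library. Beside them are the sinusoidal marker Clec4g, the bile duct marker Krt19 and the sum of 8 cholangiocyte markers, mostly Spp1. WT 8 is the highest library for F3 (10.5), Plat (3.25) and Krt19 (30.9) and the lowest for F8 (0.735) and Clec4g (2.54).

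Of 26 further genes of coagulation and fibrinolysis, 24 were tested and none passed with all 6 libraries in edgeR's quasi-likelihood test. At an unadjusted p under 0.05 in this test, 5 were higher, beside 11.5% of all genes, and 4 lower, beside 14.8%. The median log2 fold change was 0.16. This median was -0.07 without WT 8 (11 of 24 positive) and -0.13 with library totals (8 of 24 positive). Those with the smallest p were as follows. Tfpi2, a Kunitz inhibitor of plasmin and of tissue factor complexes, was at 35.1, 36.8 and 34.9 FPKM in the C52S libraries and 23.96, 22.2 and 23.8 in the WT ones, with little spread in either group (log2 fold change 0.89, SE 0.13, edgeR adjusted p = 0.0559). Serpina5, the protein C inhibitor, was at 0.0748, 0.0341 and 0.0746 FPKM in the C52S libraries and 1.05, 0.413 and 0.623 in the WT ones (-3.20, SE 0.56, edgeR adjusted p = 0.0667), with a lowest estimated count of 7. Thrombospondin 1, Thbs1, was at 0.877, 0.771 and 0.694 FPKM in the C52S libraries and 1.32, 3.61 and 1.63 in the WT ones (-1.13, SE 0.30, edgeR adjusted p = 0.0965, and -0.73 without WT 8). Lman1, the cargo receptor that exports factors V and VIII from the endoplasmic reticulum, was at 26.6, 28.6 and 29.4 FPKM in the C52S libraries and 22.5, 24.4 and 25.4 in the WT ones (0.51, SE 0.14, edgeR adjusted p = 0.102). All 4 had separated groups. On the FPKM scale 6.09% of all genes tested were separated with higher values in Prdx1 C52S and 36.7% with lower ones. Without WT 8, Tfpi2 and Serpina5 were called in this list, with edgeR adjusted p-values of 0.0106 and 0.0146. Over all alternatives these ran from 3.062e-06 to 0.273 for Tfpi2 and from 2.179e-05 to 0.285 for Serpina5, lowest in DESeq2.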

How the data were processed

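Poly(A)-selected liver RNA of 6 libraries was sequenced as read pairs, per the labels' protocols. The authors deposited, per the file headers, FPKM values and estimated counts for 29734 genes. Tools listed in the submitters' processing notes, without roles, include HISAT2 2.0.4 and StringTie 1.3.4d, beside cutadapt 1.9, and the build listed is mm9. Of the identifiers, 29642 are in GENCODE M21 and 26753 have its GRCm38 coordinates, so positions are given on GRCm38. Low counts peak at 4 (6204 values, beside 3538 at 3 and 5315 at 1), so that they are estimates, not tallies, and count models treat them as too precise. The library protocol marks strand, but no source used here says how strand or shared reads were counted. Of the members, 7 overlap a gene on the same strand and 6 one on the other.

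The test was that of edgeR 4.0.16 under R 4.3.3 (filterByExpr, TMM, robust quasi-likelihood F-test, two-sided, Benjamini-Hochberg over 18931 genes, threshold 0.05), after a check on simulated counts. Alternatives used DESeq2 1.42.0, limma 3.58.1, other scalings and filters, and each library left out. No library pair was identical. The rule for names took all 35 members, at most 4 genes with the smallest p from the other coagulation genes and 2 from each other context list, and markers. Members and lists were chosen with earlier results of these data known. The marker Tf was not analysed here, and 1 gene of a context list is not reported here.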

Additional observations from a re-analysis of the deposited data

How the results depend on the processing

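Of 42 named genes, 29 kept the sign of their log2 fold change under all 15 alternatives. Genes called with all 6 libraries numbered 0 in the edgeR quasi-likelihood test (4983 at an unadjusted p under 0.05) and 0 with upper quartile factors. They numbered 3122 with DESeq2, 1937 with voom and library quality weights, 271 and 90 with limma on log2(FPKM + 0.1) and log2(FPKM + 1), 196 without a low-count filter, 160 with library totals, 83 with counts divided by 4 and 14 with quantile normalization. They ranged from 0 to 897 with 1 library left out, 897 without WT 8 and 132 without WT 9. Members called numbered 9 with DESeq2, 5 with voom, and 1, Serpina10, with library totals and with limma on log2(FPKM + 0.1), and from 0 to 4 with 1 library left out. The hepatocyte-made median of 0.35 was 0.06 with library totals, 0.08 with limma at either pseudocount and -0.03 with quantile normalization, and 0.24 to 0.43 with 1 library left out. The endothelial or stromal median of -0.35 was -0.62 with library totals and -0.60 with limma on log2(FPKM + 0.1), -0.14 with quantile normalization, and -0.50 to -0.29 with 1 library left out.

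Signs turned as follows, and the cause was not tested. With library totals, F9 was at -0.07, Kng2 -0.09, Serpinf2 -0.05, Ggcx -0.08 and F2r -0.27. With limma on log2(FPKM + 0.1) and log2(FPKM + 1), F9 was at -0.05 in both, Kng2 at -0.08 in both, Serpinf2 at -0.05 in both, Ggcx at -0.07 and -0.06, and F2r at -0.25 and -0.24. With quantile normalization, F2 was at -0.09, F9 -0.04, F12 -0.11, Kng1 -0.21, Kng2 -0.10, F5 -0.13, Serpind1 -0.03, Plg -0.03, Serpinf2 -0.23 and F2r -0.08. F2r was also at -0.0039 with upper quartile factors, -0.15 with voom and -0.08 to -0.0023 without WT 8, WT 9 or Prdx1 C52S 1. With 1 library left out, Fgg ran from -0.42 to 0.02 (highest without WT 9), Vwf from -0.58 to 0.15 (highest without WT 6) and F2r up to 0.23. The ratios between genes, and their values without each library, were chosen after seeing the data. No paired analysis was possible because the groups share no replicate number.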
